A study of Mus musculus with 15 samples.

Results

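Satellite cells, the stem cells that repair skeletal muscle, were taken from mouse hindlimb muscle, cultured and treated for 24 hours with adenosine, with adenosine monophosphate (AMP, which is adenosine carrying a phosphate) or with the solvent DMSO as the control. Their RNA was sequenced in 15 libraries, in a series whose title asks how purine nucleotides outside the cell act on the activation of these cells in diabetes. The results below concern 9 of the 13 mRNAs that the mouse mitochondrial genome encodes, chosen by their symbols, with earlier results of these data known. They are mt-Nd1, mt-Nd2, mt-Nd4 and mt-Nd5 of complex I, mt-Cytb of complex III, mt-Co1, mt-Co2 and mt-Co3 of complex IV, and mt-Atp6 of the ATP synthase, complex V. All 9 were found among the 46078 genes of the batch 1 count table and the 13063 named genes of the batch 2 count table, and all 9 passed the filter on low counts in both. Batch 1 held 3 libraries of DMSO and 3 of 0.05 mM adenosine. Batch 2, labelled C57BL/6J, held DMSO, adenosine at 0.1 mM and AMP at 0.25 mM, again with 3 libraries in each group; for batch 1 the labels name no strain. The culture medium of every group, controls included, was F10 with horse serum. It is not stated whether replicates are different animals, different cultures or repeat libraries, so p-values measure the spread between libraries, and that spread may be technical.

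Mitochondrial DNA is copied into long precursor RNAs, which are cut apart mainly at the transfer RNAs that lie between the coding genes. One strand carries both ribosomal RNAs and all of the mRNAs described here in a fixed order, so these mRNAs start from shared precursors, and their separate levels are known to depend on RNA processing and stability. The proteins they encode form the core of the respiratory chain, which passes electrons to oxygen and pumps the protons that drive ATP synthesis. Satellite cells at rest are known to hold few mitochondria and to gain them as they become activated.

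Depth ranged from 14683346 to 20799588 counts per library in batch 1 and from 11107450 to 14201933 in batch 2. All 10 markers of satellite cells and myoblasts were above 0 in every group, and their summed level was 6766 to 6986 CPM with DMSO and 4324 to 5229 with adenosine in batch 1, and 5449 to 5981, 3176 to 3864 and 3543 to 4292 CPM with DMSO, adenosine and AMP in batch 2. Single markers of this list went in both directions. In batch 2 Des averaged 1436, 398 and 435 CPM in these groups, whereas Pax7 averaged 41.7, 66.0 and 77.1. In batch 1 Pax7 averaged 59.1 CPM with DMSO and 60.6 with adenosine. Leukocyte markers, 8 in batch 1, summed to 1.33 to 2.96 CPM with DMSO and 11.8 to 18.9 with adenosine, and Cd3e was at 0 in all of that batch. The 6 endothelial markers summed to 5.10 to 7.34 and 18.6 to 24.3 CPM, and the 7 smooth muscle and pericyte markers to 49.1 to 83.2 and 12.01 to 21.7 CPM. Tek alone went from 4.82 to 16.7 and Notch3 alone from 65.5 to 11.6 normalised CPM (scaling described below). Pecam1 had 1.04 CPM with DMSO and 1.83 with adenosine. Of the 8 leukocyte markers only 1, Cd68, passed the filter on low counts, and Ptprc had 0.0206 and 0.609 CPM. The endothelial and pericyte sums thus rest mainly on 1 gene each, and none of the sums was taken as a change in cell types. Markers of fibro-adipogenic progenitors (113 to 150 and 76.5 to 156 CPM) and of adult myofibres (94.7 to 162 and 102 to 126 CPM) overlapped between the groups of batch 1. The batch 2 table held 2 leukocyte, 2 endothelial and 2 smooth muscle and pericyte markers. Leukocyte markers there summed to 1.66 to 3.31 CPM with DMSO, 12.1 to 15.7 with adenosine and 12.3 to 16.3 with AMP. Endothelial markers summed to 2.00 to 5.26, 9.15 to 10.3 and 9.24 to 12.7 CPM, and smooth muscle and pericyte markers to 40.9 to 43.9, 9.15 to 14.2 and 12.8 to 19.3 CPM. The 3 fibro-adipogenic markers (68.9 to 80.1, 60.3 to 85.9 and 65.8 to 75.3 CPM) overlapped between the groups. So did the 4 myofibre markers (109.6 to 158.5, 91.8 to 152.8 and 111.5 to 180.1 CPM). Malat1, an RNA held in the nucleus, took 0.0551% to 0.0770% of the counts with DMSO and 0.0989% to 0.103% with adenosine in batch 1, and 0.0143% to 0.0230%, 0.0574% to 0.0822% and 0.0490% to 0.0879% in the 3 groups of batch 2. The part of these signals in the results on the mitochondrial mRNAs was not tested.

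The 9 genes run along the mitochondrial genome (GRCm38, the build of the files) in the order mt-Nd1 (chrM:2751-3707), mt-Nd2 (chrM:3914-4951), mt-Co1 (chrM:5328-6872), mt-Co2 (chrM:7013-7696), mt-Atp6 (chrM:7927-8607), mt-Co3 (chrM:8607-9390), mt-Nd4 (chrM:10167-11544), mt-Nd5 (chrM:11742-13565) and mt-Cytb (chrM:14145-15288), all on the plus strand. Each is a single uninterrupted protein-coding gene. Part of this stretch also lies in the nuclear genome, on the minus strand of chromosome 1, where the GENCODE M21 annotation of GRCm38 lists a row of unprocessed pseudogenes. The copy of mt-Co2, Gm28661 (chr1:24614885-24615565), had 681 of 681 aligned bases identical to the mitochondrial gene. The copies of mt-Atp6 (Gm10925, chr1:24613974-24614651) and mt-Co3 (Gm28437, chr1:24613189-24613971) were identical over 678 of 678 and 783 of 783 bases. The copy of mt-Co1, Gm29216 (chr1:24615706-24616197), held only the last part of the gene, with 486 of 492 bases identical. Gm28439 (chr1:24611535-24612410) matched mt-Nd4 over 876 of 876 bases of its 1378.

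The first 60 bases of mt-Co2, mt-Atp6 and mt-Co3 are shown beside those of their copies. A read that lies wholly within these stretches cannot be assigned to one genome by its sequence alone. Bases outside the genes and copies were not compared. For mt-Co1 the stretch from base 1054 to base 1113 of the gene is shown, where its copy begins. Sequences are from the GENCODE M21 transcripts (GRCm38), 5′ to 3′ along the transcript, and capitals mark bases that differ between a gene and its copy.
mt-Co2 (chrM:7013-7072): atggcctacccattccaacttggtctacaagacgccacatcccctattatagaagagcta
Gm28661 (chr1:24615506-24615565, minus strand): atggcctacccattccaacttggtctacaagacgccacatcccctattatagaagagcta
mt-Atp6 (chrM:7927-7986): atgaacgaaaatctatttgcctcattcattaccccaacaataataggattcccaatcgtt
Gm10925 (chr1:24614592-24614651, minus strand): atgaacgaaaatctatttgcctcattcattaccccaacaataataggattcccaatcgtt
mt-Co3 (chrM:8607-8666): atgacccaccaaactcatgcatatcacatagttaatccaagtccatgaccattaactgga
Gm28437 (chr1:24613912-24613971, minus strand): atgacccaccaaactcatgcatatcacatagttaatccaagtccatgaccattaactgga
mt-Co1 (chrM:6381-6440): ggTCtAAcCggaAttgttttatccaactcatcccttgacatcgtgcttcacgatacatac
Gm29216 (chr1:24616138-24616197, minus strand): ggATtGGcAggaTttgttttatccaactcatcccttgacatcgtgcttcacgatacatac
The first 3 pairs hold no capitals because they do not differ, and the 6 differences of the mt-Co1 pair all lie within the first bases of the copy.

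To see how far this reaches, every window of 100 bases in each gene was looked up in the transcripts of nuclear genes, on either strand. Such a match was found for 99.49% of the windows of mt-Co2, 99.48% of mt-Atp6 and 99.85% of mt-Co3. It was found for 60.8% of the windows of mt-Nd4, 30.8% of mt-Co1 and 3.19% of mt-Nd2, and for 0% of those of mt-Nd1, mt-Nd5 and mt-Cytb. With windows of 50 bases the shares were 100%, 99.53% and 99.86% for the first 3 genes, 62.2%, 51.1% and 8.19% for mt-Nd4, mt-Co1 and mt-Nd2, 7.61% for mt-Nd5, and again 0% for mt-Nd1 and mt-Cytb. Both window sizes are arbitrary, since the sources used here do not give the read length. The counting command in the batch 1 file header names no option for reads that map to several places, and for batch 2 no counting options are stated in these sources.

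The 3 genes that are repeated almost whole were listed far below the other 6. In the DMSO libraries of batch 1, mt-Co2 had 49, 40 and 44 counts, mt-Atp6 127, 93 and 104, and mt-Co3 34, 34 and 33. By comparison mt-Co1, which codes for the catalytic subunit of the same complex as mt-Co2 and mt-Co3, had 83663, 58073 and 55568 counts in the same libraries. Per length, in the authors' deposited FPKM, mt-Co1 was 647 times as high as mt-Co2 there, 266 times as high as mt-Atp6 and 967 times as high as mt-Co3. In the DMSO libraries of batch 2 these ratios were 112, 67.9 and 101. The 3 genes together held 0.0590% to 0.0931% of the counts of the 9 genes in the libraries of batch 1, and 0.298% to 0.516% in those of batch 2. mt-Atp8, a short gene that lies between mt-Co2 and mt-Atp6 and shares 43 bases with the latter, was also low. It had 3, 13 and 7 counts (2.49 FPKM on average) in the DMSO libraries of batch 1. None of its windows was found in a nuclear transcript. The search covered annotated transcripts only, and the chromosome 1 stretch between the copies Gm28661 and Gm10925 belongs to neither. Whether mt-Atp8 is repeated there was not tested. The values of mt-Co2, mt-Atp6 and mt-Co3 are given as the counts assigned to them, not as levels of the mitochondrial mRNA.

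**Figure D1:**
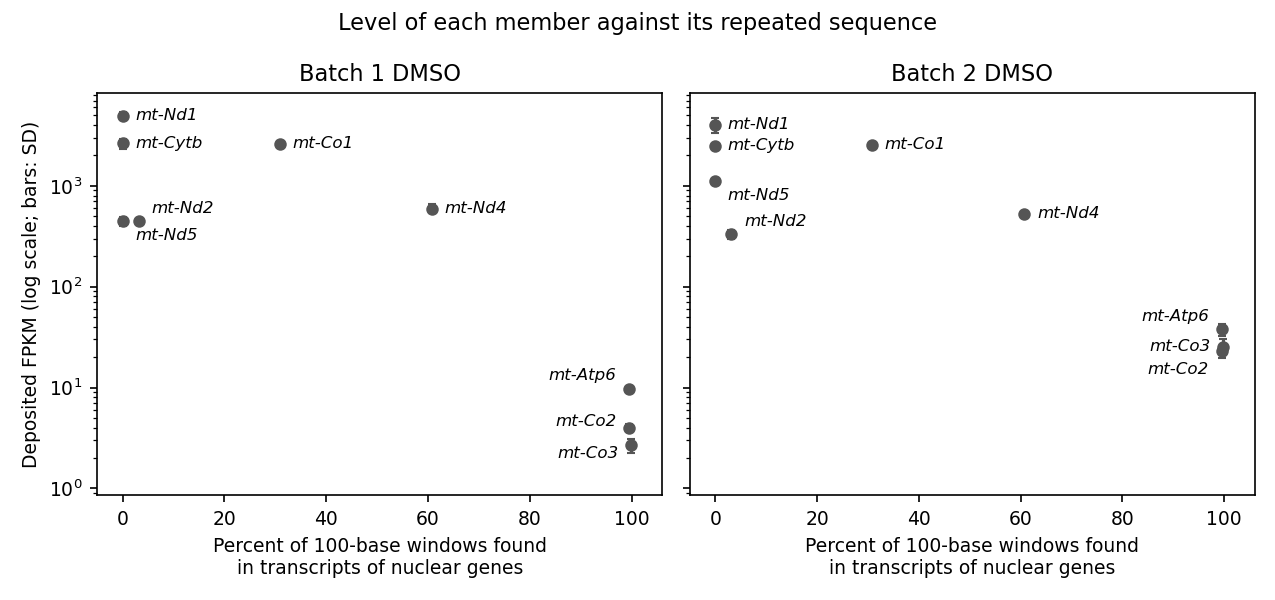
Deposited FPKM of each gene in the DMSO libraries (log axis, mean of 3 libraries, bars show SD) against the percent of its 100-base windows that also occur in transcripts of nuclear genes. mt-Co2, mt-Atp6 and mt-Co3 sit at the right edge and below 40 FPKM in both batches, while mt-Nd4 and mt-Co1, repeated in part, sit among the other genes.

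Among the 6 other genes, mt-Nd1 was the highest per length in every group. In the DMSO libraries of batch 1 it had 5495, 4636 and 4757 FPKM, above mt-Cytb with 2974, 2513 and 2424 and mt-Co1 with 2754, 2614 and 2406. The last 2 overlapped, and so did mt-Nd5 (447 ± 49.0 FPKM, SD, n = 3) and mt-Nd2 (444 ± 11.2), whereas mt-Nd4 (595 ± 60.6) lay above both. In the DMSO libraries of batch 2 the order was mt-Nd1 (4047 ± 676 FPKM), mt-Co1 (2564 ± 13.5), mt-Cytb (2473 ± 57.9), mt-Nd5 (1108 ± 15.9), mt-Nd4 (529 ± 10.9) and mt-Nd2 (334 ± 34.6), with no overlap between neighbours. The tables were normalised separately, so levels are not compared across batches. With adenosine or AMP mt-Co1 lay above mt-Cytb without overlap in each of the 3 treated groups, while mt-Nd2 overlapped mt-Nd4 in all 3. Part of mt-Co1 and mt-Nd4 is repeated in nuclear transcripts (30.8% and 60.8% of their 100-base windows), and reads from there may be missing from their FPKM. The places of these genes in the orders above, also relative to mt-Nd1, are those of the assigned counts per length, not of mRNA levels.

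Treated and DMSO libraries were compared within each batch with edgeR on the counts, with Benjamini-Hochberg adjustment over all genes tested, and a gene was called at an adjusted p under 0.05. Levels across groups are given as CPM after edgeR's TMM scaling, called normalised CPM here. With 0.05 mM adenosine 0 of the 9 genes rose and 2 fell, mt-Cytb and mt-Nd5, against 19.6% and 19.5% of all 13842 genes tested (39.2% in either direction). With 0.1 mM adenosine 3 rose (mt-Nd1, mt-Nd2 and mt-Co1) and the same 2 fell, against 34.9% and 34.5% of 13063 genes (69.4% in either direction). With 0.25 mM AMP 2 rose (mt-Nd2 and mt-Co1) and the same 2 fell, against 33.7% and 31.8% (65.6% in either direction). The median log2 fold changes of the 9 genes were -0.21, 0.06 and 0.01, beside 0.03, 0.01 and 0.01 for all genes tested, and the genes went in both directions among themselves. Library totals in place of TMM scaling moved the median of all genes to 0.22, 0.32 and 0.28 in the 3 comparisons. With that scaling mt-Cytb still fell in all 3, mt-Nd5 kept its direction but passed in none, and 2, 6 and 5 of the 9 genes rose. Of all genes tested, 4012 of 13842, 6344 of 13063 and 6037 of 13063 rose with that scaling, and 1955, 2891 and 2605 fell. The labels name no spike-in control, values are relative to the rest of each library's RNA, and fewer cells of a type and less RNA per cell cannot be told apart.

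**Figure D2:**
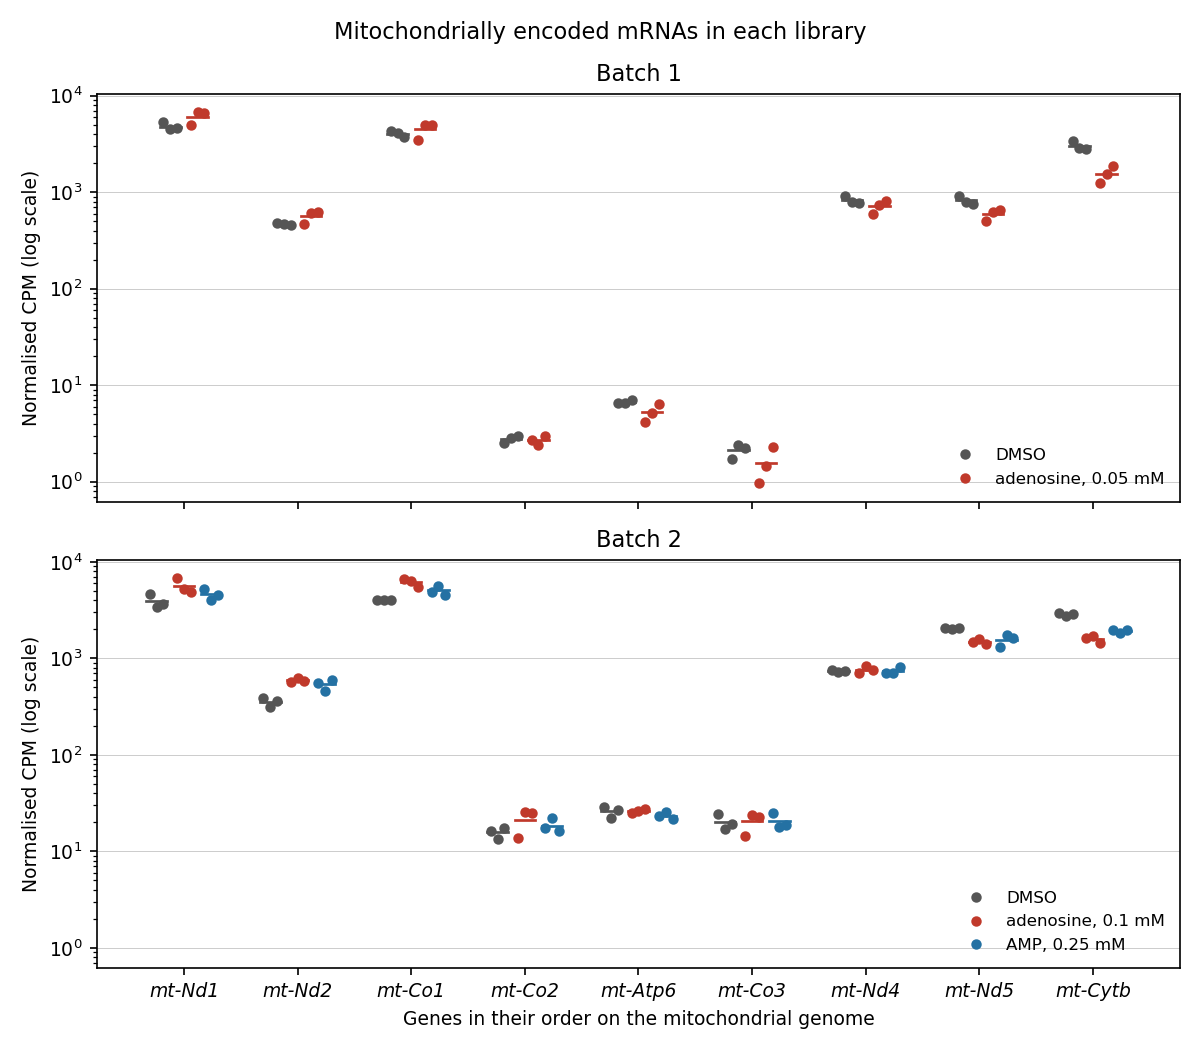
Normalised CPM of the 9 genes in each library (log axis), with the genes in their order on the mitochondrial genome, a point for each library and a line at each group mean. mt-Cytb and mt-Nd5 lie lower in every treated library than in the DMSO libraries of the same batch, and mt-Nd2 and mt-Co1 lie higher in the treated libraries of batch 2.

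Cytochrome b, the product of mt-Cytb, is the mitochondrially encoded subunit of complex III and carries its hemes between the quinone sites. In batch 1 mt-Cytb had 3420, 2901 and 2789 normalised CPM with DMSO and 1231, 1539 and 1884 with adenosine. In batch 2 it had 2916, 2771 and 2887 with DMSO, 1638, 1706 and 1436 with adenosine and 1984, 1837 and 1972 with AMP. All treated libraries were below all DMSO libraries of their batch. The log2 fold change against DMSO was -0.97 with 0.05 mM adenosine (SE 0.15, edgeR adjusted p = 3.04e-04), -0.84 with 0.1 mM adenosine (SE 0.08, adjusted p = 1.38e-07) and -0.57 with AMP (SE 0.08, adjusted p = 1.26e-05). These are levels 1.96-fold, 1.79-fold and 1.48-fold lower. The 3 calls held in all the alternative settings run, and no window of mt-Cytb matched a nuclear transcript. In the authors' deposited table for batch 1, whose log2 fold changes are DMSO over adenosine, mt-Cytb had 0.98 (the authors' adjusted p = 4.53e-09).

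Of the 4 complex I genes, all of which code for membrane subunits of the proton-pumping arm, mt-Nd5 fell in all 3 comparisons. None rose in batch 1, whereas in batch 2 mt-Nd2 rose with both treatments and mt-Nd1 with adenosine. For mt-Nd5, one of the antiporter-like subunits, the DMSO libraries of batch 1 had 922, 791 and 751 normalised CPM and the adenosine libraries 508, 627 and 651. The batch 2 libraries had 2071, 2001 and 2053 with DMSO, 1468, 1605 and 1409 with adenosine and 1312, 1735 and 1614 with AMP. The treated libraries were again below all DMSO libraries of their batch. Its log2 fold changes were -0.47 (SE 0.13, edgeR adjusted p = 0.0121), -0.45 (SE 0.09, adjusted p = 4.65e-04) and -0.39 (SE 0.09, adjusted p = 0.00155) with 0.05 mM adenosine, 0.1 mM adenosine and AMP. Without DMSO replicate 1 of batch 1 the first of these was -0.38 with an adjusted p of 0.0526, and with library totals the 3 values were -0.27, -0.14 and -0.12 (adjusted p = 0.117, 0.235 and 0.311). mt-Nd5 overlaps mt-Nd6 on the other strand by 14 bases, and the library method does not keep the strand.

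For mt-Nd2, another antiporter-like subunit, batch 1 had 476, 463 and 453 normalised CPM with DMSO and 465, 603 and 628 with adenosine, where adenosine replicate 1 lay among the DMSO libraries. Batch 2 values were 384, 310 and 358 with DMSO, 571, 630 and 584 with adenosine and 552, 464 and 597 with AMP, with no overlap between DMSO and either treatment. The gene rose in batch 2 by a log2 fold change of 0.76 with adenosine (SE 0.10, edgeR adjusted p = 3.96e-06) and 0.62 with AMP (SE 0.10, adjusted p = 4.34e-05). In batch 1 the value was 0.29 (SE 0.13, adjusted p = 0.091). Without adenosine replicate 1 it was 0.38 (adjusted p = 0.0127), and with library totals 0.48 (adjusted p = 0.00953).

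For mt-Nd1, whose product lies where the membrane arm meets the quinone site, batch 1 had 5286, 4478 and 4578 normalised CPM with DMSO and 4908, 6700 and 6615 with adenosine. Batch 2 had 4666, 3381 and 3696 with DMSO, 6763, 5224 and 4871 with adenosine and 5235, 4003 and 4585 with AMP. The adenosine libraries of batch 2 lay above all DMSO libraries, whereas the AMP libraries overlapped them, as did the adenosine libraries of batch 1. The log2 fold change was 0.52 with 0.1 mM adenosine (SE 0.14, edgeR adjusted p = 0.00297). It was 0.35 with 0.05 mM adenosine (SE 0.13, adjusted p = 0.055) and 0.24 with AMP (SE 0.14, adjusted p = 0.138). The value of batch 1 lay close to the threshold and passed with DESeq2 (0.34, adjusted p = 0.0373), without the filter on low counts (0.30, adjusted p = 0.0469), with the test limited to genes averaging 10 CPM or more (0.36, adjusted p = 0.0474), with library totals (0.54, adjusted p = 0.00583), without DMSO replicate 1 (0.41, adjusted p = 0.043) and without adenosine replicate 1 (0.45, adjusted p = 0.00712). The AMP value passed with library totals (0.50, adjusted p = 0.00218), without DMSO replicate 1 of batch 2 (0.38, adjusted p = 0.0267) and with a replicate block (0.24, adjusted p = 0.0163).

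mt-Nd4, the remaining complex I gene and also an antiporter-like subunit, was not called in any of these comparisons. It had 920, 792 and 764 normalised CPM with DMSO and 593, 738 and 812 with adenosine in batch 1. Batch 2 libraries had 749, 716 and 743 with DMSO, 713, 825 and 760 with adenosine and 707, 713 and 810 with AMP, so that the groups overlapped throughout. The log2 fold changes were -0.21 (SE 0.13, edgeR adjusted p = 0.239), 0.06 (SE 0.08, adjusted p = 0.517) and 0.01 (SE 0.08, adjusted p = 0.883). With library totals it passed in batch 2, at 0.37 with adenosine (adjusted p = 0.00242) and 0.28 with AMP (adjusted p = 0.0148).

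mt-Co1 codes for the subunit of complex IV that holds the site where oxygen is reduced. In batch 1 it had 4277, 4077 and 3738 normalised CPM with DMSO and 3470, 4996 and 4948 with adenosine. The values in batch 2 were 4021, 4008 and 3977 with DMSO, 6599, 6351 and 5476 with adenosine and 4924, 5647 and 4582 with AMP. The batch 2 DMSO libraries lay close together, and all treated libraries of that batch lay above them. The rise was 0.62 on the log2 scale with adenosine (SE 0.09, edgeR adjusted p = 2.26e-05) and 0.34 with AMP (SE 0.09, adjusted p = 0.00471), or 1.53-fold and 1.26-fold. In batch 1, where the groups overlapped, the log2 fold change was 0.15 (SE 0.14, adjusted p = 0.423), and without adenosine replicate 1 it was 0.27 (adjusted p = 0.0465).

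The counts assigned to mt-Co2 and mt-Co3, the other core subunits of complex IV, and to mt-Atp6, which forms the proton channel of ATP synthase beside the rotating ring, were not called in any comparison with DMSO. In batch 2 mt-Co2 had 207, 133 and 192 counts with DMSO, 171, 363 and 323 with adenosine and 196, 259 and 211 with AMP. Its log2 fold changes were -0.03 (SE 0.39), 0.43 (SE 0.21, edgeR adjusted p = 0.072) and 0.23 (SE 0.21). Adenosine replicate 1 of batch 2 was the lowest of its group for mt-Co2 and mt-Co3 and for their copies Gm28661 and Gm28437. Without that library mt-Co2 had a log2 fold change of 0.67 (edgeR adjusted p = 0.00201). With library totals it passed in batch 2 at 0.75 with adenosine and 0.49 with AMP (adjusted p = 0.00391 and 0.0491), and with the test limited to genes averaging 10 CPM or more it passed with adenosine (0.51, adjusted p = 0.0477).

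For mt-Co3 batch 2 had 308, 171 and 208 counts with DMSO, 183, 342 and 299 with adenosine and 278, 209 and 246 with AMP, and the log2 fold changes were -0.42 (SE 0.50), 0.02 (SE 0.19) and 0.01 (SE 0.19) in the order of the comparisons above. mt-Atp6, which shares 43 bases with mt-Atp8, had -0.34 (SE 0.29), 0.01 (SE 0.12) and -0.15 (SE 0.13). In batch 1 its adenosine libraries lay below all DMSO libraries without passing the test, and with library totals it passed with 0.1 mM adenosine (0.32, adjusted p = 0.041) and turned to 0.11 with AMP. The copies were also counted: Gm28661 had 204, 148 and 180 counts in the batch 1 DMSO libraries, more than mt-Co2 itself, and Gm10925 and Gm28437 likewise exceeded mt-Atp6 and mt-Co3 there. Each gene's counts were also added to those of its copy, a step chosen after the data were seen. The sum of mt-Co3 and Gm28437 then fell with 0.05 mM adenosine by 0.60 on the log2 scale (edgeR adjusted p = 0.0449). The sum of mt-Atp6 and Gm10925 fell with AMP by 0.31 (adjusted p = 0.0244). Gm28437 had 237, 173 and 187 counts in the batch 1 DMSO libraries, so the first sum was mostly the copy. The copies alone also passed there, Gm28437 with -0.63 (adjusted p = 0.0409) and Gm10925 with -0.40 (adjusted p = 0.018). At the counts of the genes without their copies, the intervals of 2 SE on either side ran from -0.81 to 0.75 for mt-Co2 in batch 1. For mt-Co3 the interval ran from -1.42 to 0.58, which holds the -0.97 seen for mt-Cytb.

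Set in the order of the genome, the highest fold changes were among the first 3 genes, at mt-Nd1 and mt-Nd2 with 0.05 mM adenosine and at mt-Nd2 and mt-Co1 in both treatments of batch 2, and the lowest was at mt-Cytb in each treatment. The Spearman rho between a gene's position and its log2 fold change over the 9 genes was -0.95 with 0.05 mM adenosine, -0.88 with 0.1 mM adenosine and -0.88 with AMP. These are descriptions with no test, since the genes share libraries and precursors, the order was looked at after the data were seen, and the batch 2 comparisons share their DMSO libraries. They include mt-Co2, mt-Atp6 and mt-Co3, whose values are assigned counts and not mRNA levels, and no rho without these genes was computed. mt-Nd3, which lies between mt-Co3 and mt-Nd4 but is not among the 9 genes, did not keep to the order. With 0.1 mM adenosine it had -0.93, below mt-Cytb, though its sequence is also repeated and its counts are low. Among the 9 genes the difference between the highest and the lowest was 1.31, 1.61 and 1.18 on the log2 scale. mt-Nd1, mt-Nd2 and mt-Co1 together made up 65.6%, 66.7% and 67.0% of the counts of the 9 genes in the batch 1 DMSO libraries and 79.1%, 80.8% and 78.4% with adenosine. In batch 2 they made up 61.0%, 58.1% and 58.3% with DMSO, 78.2%, 74.3% and 74.8% with adenosine and 72.5%, 69.9% and 68.7% with AMP. mt-Nd5 and mt-Cytb went from 27.6% ± 0.687 to 15.4% ± 1.05 in batch 1, and from 35.1% ± 1.41 with DMSO to 19.0% ± 1.41 with adenosine and 24.1% ± 1.56 with AMP in batch 2 (SD, n = 3).

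**Figure D3:**
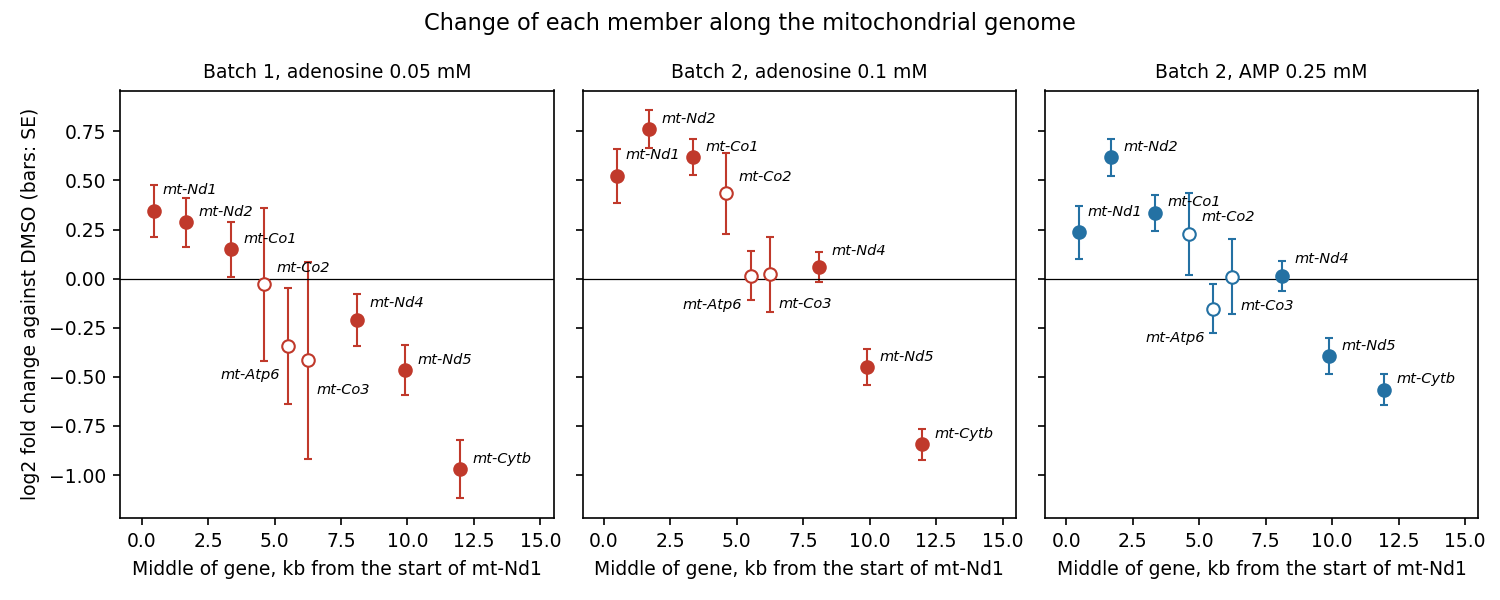
log2 fold change against DMSO (bars show the SE) of each gene against the distance of its middle from the start of mt-Nd1 in kb, for 0.05 mM adenosine, 0.1 mM adenosine and 0.25 mM AMP. Open points are the 3 genes repeated almost whole in the nuclear genome, and mt-Cytb, the farthest gene, has the lowest value in all 3 plots.

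The ratio of mt-Cytb to mt-Nd1 counts within a library needs no scaling between libraries, and neither gene had a matching window in a nuclear transcript. It was chosen after the data were seen. In batch 1 the ratio was 0.647, 0.648 and 0.609 with DMSO and 0.251, 0.230 and 0.285 with adenosine. In batch 2 it was 0.625, 0.820 and 0.781 with DMSO, 0.242, 0.326 and 0.295 with adenosine and 0.379, 0.459 and 0.430 with AMP. Every treated library was below every DMSO library of its batch, and the AMP libraries lay between the DMSO and the adenosine libraries. The mean was 0.635 ± 0.0221 with DMSO and 0.255 ± 0.0279 with adenosine in batch 1, 59.8% lower. In batch 2 it was 0.742 ± 0.103 with DMSO, 61.2% lower with adenosine (0.288 ± 0.0425) and 43.0% lower with AMP (0.423 ± 0.0404, SD, n = 3 per group). On the log2 ratio the two-sided exact permutation p was 0.1 in each of these comparisons, also after adjustment over 4 comparisons, which is the smallest p that 3 libraries against 3 can give. Leaving out any library of the groups compared, the log2 difference stayed between -1.40 and -1.25 in batch 1, between -1.49 and -1.25 with adenosine in batch 2 and between -0.93 and -0.73 with AMP.

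**Figure D4:**
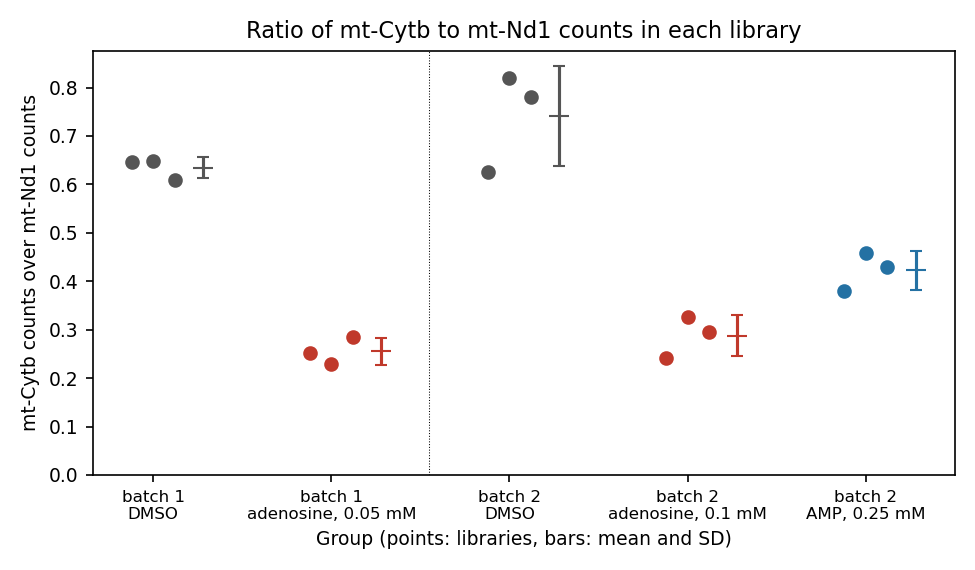
Ratio of mt-Cytb to mt-Nd1 counts in each library (points) with the mean and SD of each group (bars). The DMSO libraries sit between 0.609 and 0.820, the adenosine libraries between 0.230 and 0.326 and the AMP libraries between 0.379 and 0.459.

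The 9 genes together took a small share of each library. In batch 1 the share of counts was 1.44%, 1.28% and 1.20% with DMSO and 1.18%, 1.64% and 1.67% with adenosine, so that adenosine replicate 1 was below all DMSO libraries and the other 2 were above them. The means were 1.31% ± 0.122 and 1.50% ± 0.275 (two-sided exact permutation p = 0.4). In batch 2 the share was 1.33%, 1.14% and 1.20% with DMSO, 1.85%, 1.82% and 1.61% with adenosine and 1.50%, 1.50% and 1.58% with AMP. The mean of 1.22% ± 0.0945 with DMSO was lower than 1.76% ± 0.131 with adenosine and 1.53% ± 0.0469 with AMP (SD, n = 3). None of these groups overlapped (two-sided exact permutation p = 0.1 for each pair, the smallest possible, or 0.133 adjusted over 4 comparisons). The share is of raw library totals. Scaled this way, the middle gene of all those tested moved up by 0.22, 0.32 and 0.28 (log2) in the 3 comparisons with DMSO. For the 9 genes these medians were -0.01, 0.37 and 0.28. All mitochondrially encoded genes, ribosomal RNAs included, held 3.48% of the counts with DMSO in batch 2, 3.81% with adenosine and 3.44% with AMP. These 3 groups overlapped. Ribosomal RNA-like genes also differed between groups. They held 3.11% to 3.43% of the counts with DMSO in batch 2, 4.03% to 6.02% with adenosine and 5.72% to 5.99% with AMP. The part of the scaling and of these genes in the higher share was not tested.

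**Figure D5:**
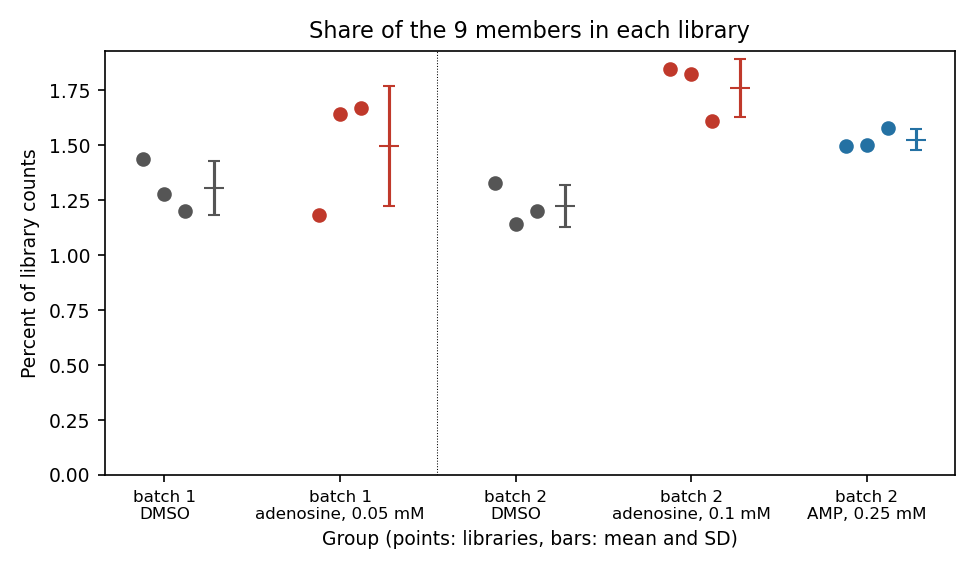
Share of the library's counts held by the 9 genes in percent, for each library (points) with the mean and SD of each group (bars). The batch 1 groups overlap, and in batch 2 the adenosine libraries (1.61% to 1.85%) lie above the AMP libraries (1.50% to 1.58%) and the DMSO libraries (1.14% to 1.33%).

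AMP and adenosine were given at different doses in batch 2, so the compound and the dose cannot be told apart between them. Set against each other, mt-Cytb was higher with AMP than with adenosine by 0.28 on the log2 scale (SE 0.08, edgeR adjusted p = 0.0454), and 1 of the 9 genes was called higher and 0 lower, against 4.52% and 2.00% of all genes (6.51% in either direction). This call was lost when any library other than adenosine replicate 2 was left out (adjusted p = 0.056 to 0.218), when only the 6 libraries compared were fitted (adjusted p = 0.102), with library totals (0.24, adjusted p = 0.131) and with limma on log2(FPKM + 1) (0.27, adjusted p = 0.0999). The differences of mt-Nd1, mt-Nd2 and mt-Co1 were -0.29 (interval of 2 SE from -0.56 to -0.02), -0.15 (-0.34 to 0.05) and -0.28 (-0.47 to -0.10), with adjusted p of 0.25, 0.434 and 0.0859. With a replicate block mt-Nd1 (-0.28, adjusted p = 0.0423) and mt-Co1 (-0.28, adjusted p = 0.0459) passed. mt-Co1 also passed with DESeq2 (-0.29, adjusted p = 0.0169), with library totals (-0.32, adjusted p = 0.0435) and without AMP replicate 2 (-0.37, adjusted p = 0.04). mt-Nd5 differed by 0.06 (-0.13 to 0.24, adjusted p = 0.8), an interval that holds 0.

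Whether the response to adenosine differed between the batches was tested as an interaction over all 15 libraries. Dose and batch changed together and cannot be told apart. None of the 9 genes passed in edgeR, against 6.27% higher and 5.65% lower (11.9% in all) of the 13057 genes tested, and 2 had an unadjusted p under 0.05. These were mt-Nd2, whose log2 fold change was 0.48 larger in batch 2 (SE 0.16, adjusted p = 0.0509), and mt-Co1, with 0.47 (SE 0.17, adjusted p = 0.0741). Both passed in DESeq2 (adjusted p = 0.0275 and 0.0369), which called 2 of the 9 genes. The differences of mt-Cytb (0.13, interval of 2 SE from -0.20 to 0.46) and mt-Nd5 (0.02, from -0.29 to 0.33) were close to 0, with intervals on both sides of it.

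Of the other mitochondrially encoded genes, mt-Rnr1 (12S ribosomal RNA) lies before mt-Nd1 on the same strand and rose in all 3 comparisons with DMSO. It had 160, 181 and 209 normalised CPM with DMSO and 227, 379 and 317 with adenosine in batch 1, and 207, 171 and 196 with DMSO, 545, 476 and 479 with adenosine and 315, 286 and 252 with AMP in batch 2. The log2 fold changes were 0.75 (SE 0.17, edgeR adjusted p = 0.00418), 1.39 (SE 0.09, adjusted p = 4.74e-09) and 0.57 (SE 0.09, adjusted p = 6.59e-05). The neighbouring mt-Rnr2 (16S ribosomal RNA), which lies between mt-Rnr1 and mt-Nd1, fell instead, by 0.41 (adjusted p = 0.0383), 0.48 (adjusted p = 0.0088) and 0.51 (adjusted p = 0.00629), so the order seen among the mRNAs did not extend to it. Its calls were lost with library totals in all 3 (adjusted p = 0.26, 0.223 and 0.0837), and in batch 1 also without DMSO replicate 1 or 2, or adenosine replicate 1 or 3 (adjusted p = 0.0522 to 0.0771), and with limma on log2(FPKM + 1) (adjusted p = 0.0705). mt-Nd6, the complex I gene on the opposite strand, had -0.20 (adjusted p = 0.247), 0.60 (adjusted p = 0.00385) and 0.13 (adjusted p = 0.502), the last passing with library totals (0.40, adjusted p = 0.0467). Its 1477, 2618 and 2446 counts with adenosine in batch 2 spread widely, and adenosine replicate 1 lay among the DMSO libraries. Its counts can also include RNA of the other strand, since the library method does not keep the strand. mt-Nd3 and mt-Nd4l, repeated in the nuclear genome like mt-Co2, had 7 counts or fewer in every library of batch 1. With adenosine and AMP in batch 2, mt-Nd4l had -0.39 and -0.37 (edgeR adjusted p = 0.284 and 0.318). mt-Atp8, with 15 to 83 counts per library there, had 0.55 (adjusted p = 0.207) and -0.84 (adjusted p = 0.0933, no overlap). For AMP against adenosine mt-Atp8 had -1.39 (adjusted p = 0.0534). In batch 2 mt-Nd3 had 75, 39 and 61 counts with DMSO, 38, 37 and 33 with adenosine and 51, 55 and 41 with AMP. It fell with adenosine by 0.93 on the log2 scale (SE 0.26, edgeR adjusted p = 0.00553), with no overlap in normalised CPM, and had -0.33 with AMP (adjusted p = 0.264). The sum of mt-Nd3 and its copy Gm28438 passed with AMP (-0.50, adjusted p = 0.0169).

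The nuclear genes that serve these mRNAs moved in both directions. The lists below were written with earlier results of these data known, and their counts stand beside 19.6% higher and 19.5% lower of all genes tested with 0.05 mM adenosine, 34.9% and 34.5% with 0.1 mM adenosine and 33.7% and 31.8% with AMP. Of 22 genes of mitochondrial transcription and DNA replication, 6 rose and 1 fell with 0.05 mM adenosine, 8 rose and 5 fell with 0.1 mM adenosine, and 8 rose and 4 fell with AMP, with medians of 0.26, 0.04 and 0.12. Polg2, the accessory subunit of the mitochondrial DNA polymerase, rose by 0.92, 1.22 and 1.15 (edgeR adjusted p = 0.00211, 7.69e-06 and 2.01e-05), and Top1mt, the mitochondrial topoisomerase, fell by 0.67, 0.78 and 0.84 (adjusted p = 0.0111, 0.000788 and 0.00053; with library totals the first was -0.48 with an adjusted p of 0.0532). Of 29 tested genes of mitochondrial RNA processing, stability and decay, 5 rose and 3 fell, 5 rose and 8 fell, and 6 rose and 8 fell, with medians of 0.02, -0.04 and -0.09.

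Pnpt1, a ribonuclease of mitochondrial RNA decay, had 79.0 ± 12.1 normalised CPM with DMSO and 43.9 ± 12.8 with adenosine in batch 1, and fell by 0.85, 0.96 and 0.87 in the 3 comparisons. Elac2, which frees the ends of the transfer RNAs when the precursor is cut, fell by 0.71, 1.08 and 0.63. Lactb2, a mitochondrial ribonuclease, rose by 0.97, 0.68 and 0.71. Lrpprc, which binds and stabilises mitochondrial mRNAs, had -0.17 (SE 0.12, adjusted p = 0.296) with 0.05 mM adenosine, and fell by 0.66 (adjusted p = 4.89e-06) with 0.1 mM adenosine and by 0.67 (adjusted p = 5.43e-06) with AMP.

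Of the nuclear-coded partners of the same complexes, to be read against the same all-gene shares, 36 genes of complex I had medians of -0.04, 0.07 and 0.004, with 6 higher and 6 lower, 13 and 10, and 10 and 11 in the 3 comparisons. Ndufs8 and Ndufs4, subunits of the peripheral arm, fell by 0.98, 1.06 and 0.83 and by 0.85, 1.06 and 0.71, while Ndufa8, an accessory subunit, rose by 0.59, 0.87 and 0.76. Of 9 genes of complex III none rose, and 1, 4 and 4 fell. Of 13 tested genes of complex IV in batch 1, 1 rose and 2 fell, and of 12 in batch 2, 3 rose and 2 fell with adenosine, and 0 rose and 5 fell with AMP. Cox4i1 rose with adenosine by 0.47 and 0.38 in batches 1 and 2, and Cox7a2l fell by 0.79, 0.69 and 0.72. Of 14 genes of complex V, 0 rose and 2 fell, 1 rose and 6 fell, and 0 rose and 7 fell, among them Atp5g3, a subunit of the rotating ring, by 0.74, 0.73 and 0.78. The medians of complexes III, IV and V were -0.11, 0.13 and -0.17 with 0.1 mM adenosine and -0.20, -0.10 and -0.25 with AMP. With library totals these became 0.20, 0.44 and 0.14 and 0.07, 0.16 and 0.01, so the sign of complexes III and V in both comparisons, and of complex IV with AMP, depended on the scaling.

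Among 12 regulators of mitochondrial biogenesis, 2 rose and 2 fell in batch 1. In batch 2, where 11 were tested, 2 rose and 7 fell with adenosine, and 3 rose and 5 fell with AMP, where 34.9% and 34.5% of all genes rose and fell with adenosine and 33.7% and 31.8% with AMP. Sirt1, a deacetylase that acts on the coactivator PGC-1α, rose by 0.87, 2.05 and 1.61 (edgeR adjusted p = 0.0037, 6.02e-07 and 1.16e-05). Ppargc1b, which codes for the coactivator PGC-1β, fell in batch 1 by 1.85 (edgeR adjusted p = 2.87e-04) and in batch 2 from 21.1 ± 2.87 normalised CPM to 1.75 ± 0.714 with adenosine and 5.45 ± 0.552 with AMP (log2 fold changes of -3.56 and -1.95, edgeR adjusted p = 5.04e-09 and 1.13e-06).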

How the data were processed

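Total RNA of 15 satellite cell samples was made into cDNA with Smart-seq2 and cut with Tn5, per the labels' protocols. The deposited count tables hold whole read-pair counts per gene, made by the authors with featureCounts 1.6.4 without strand in batch 1, per the file headers; Trim Galore, STAR, featureCounts, DESeq2 and mm10 are named in the submitters' processing notes. The deposited FPKM were normalised per gene length and library by the authors; the headers do not say how. Next to its FPKM, batch 1 has the authors' deposited log2 fold changes and adjusted p-values, which were only quoted. In batch 2, 43 unnamed lines with 0.0589% of the counts were left out, and no gene has fewer than 101 counts in all.

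Counts were tested with edgeR 4.0.16 (R 4.3.3; quasi-likelihood F test, TMM scaling, filterByExpr by group, Benjamini-Hochberg adjustment over all genes, threshold 0.05). Each batch was fitted alone, and the difference between batches on all 15 libraries. SE stands for the absolute log2 fold change divided by the root of its F value. Alternatives were library totals, DESeq2 1.42.0, other filters, a replicate block, limma 3.58.1 on log2(FPKM + 1) or log2(FPKM + 0.1), totals without mitochondrial genes, and leaving out each library. The edgeR script was tested on simulated data. Replicate pairs of a group differed beyond sampling noise (chi-square per degree of freedom 3.54 to 34.4). Intervals are 2 SE on either side.

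The 9 genes and the gene lists were chosen with earlier results of these data known. From each list, up to 3 genes per direction and comparison could be named: those with the largest fold change among called genes of at least 10 CPM whose groups do not overlap. Lrpprc, and further values of a gene named elsewhere, were added after their values were seen, as were the normalised CPM, the mt-Cytb to mt-Nd1 ratio, the order along the genome and the sums with nuclear copies. Each of the 37 mitochondrial genes had the same coordinates in the count table and in GENCODE M21.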

Additional observations from a re-analysis of the deposited data

Results flagged for a closer look

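Among the other mitochondrial genes and the list genes named above, the responses to adenosine of 5 genes differed between the batches in edgeR's interaction test over all 15 libraries, a test that called 11.9% of the 13057 genes tested. Dose and batch changed together and cannot be told apart, and a value above 0 means a larger log2 fold change in batch 2. For mt-Nd6, the complex I gene on the opposite strand, whose counts do not keep the strand, the difference was 0.8083 (adjusted p = 0.0274), from -0.20 in batch 1 to 0.60 in batch 2. For mt-Rnr1, the 12S ribosomal RNA, it was 0.6475 (adjusted p = 0.0437), from 0.75 to 1.39. Lrpprc, which stabilises mitochondrial mRNAs, differed by -0.4883 (adjusted p = 0.0239), from -0.17 to -0.66. Sirt1, the deacetylase, differed by 1.189 (adjusted p = 0.0161), from 0.87 to 2.05. Ppargc1b, the coactivator PGC-1β, differed by -1.71 (adjusted p = 0.00671), from -1.85 to -3.56.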

How the results depend on the processing

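The calls of mt-Cytb against DMSO in all 3 comparisons, of mt-Nd2 and mt-Co1 in both comparisons of batch 2 with DMSO and of mt-Nd1 with 0.1 mM adenosine passed under every alternative run. Leaving out each library, the log2 fold change of mt-Cytb stayed between -1.15 and -0.86 with 0.05 mM adenosine, between -0.89 and -0.77 with 0.1 mM adenosine and between -0.59 and -0.53 with AMP. Of 1929 single-gene values under the alternatives 33 turned their direction, 31 lost and 46 gained a call. With library totals 2 of the 9 genes were higher and 1 lower with 0.05 mM adenosine, 6 and 1 with 0.1 mM adenosine, 5 and 1 with AMP, 0 and 1 for AMP against adenosine, and 2 were higher for the difference between batches. All-gene calls then went from 2714 higher and 2706 lower to 4012 and 1955 in batch 1, from 4559 and 4508 to 6344 and 2891 with 0.1 mM adenosine, from 4405 and 4159 to 6037 and 2605 with AMP, from 590 and 261 to 414 and 257 for AMP against adenosine, and from 819 and 738 to 1051 and 335 for the difference between batches. In batch 1, 1 gene was higher with DESeq2, 1 without the filter and 1 at a mean of 10 CPM or more, and leaving out a library gave 0 to 3 higher and 1 to 2 lower. For AMP against adenosine, 1 gene was lower with DESeq2 and 1 with the nuclear copies summed, 0 were higher with limma at either pseudocount or with only the 6 libraries compared, and leaving out a library gave 0 to 1 higher and 0 to 1 lower. For the difference between batches, 2 genes were higher with DESeq2 and 2 at a mean of 10 CPM or more, and 0 to 2 when a library was left out.

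Replicate numbers were not taken to pair libraries: deviations of same-numbered libraries correlated by -0.19 to 0.22 in batch 1 and -0.03 to 0.51 in batch 2, and 2 of 6 and 4 of 9 libraries correlated best with their own number. With a replicate block 2 of the 9 genes were lower with AMP than with adenosine, 1 was higher for the difference between batches, and the AMP call of mt-Nd1 was gained.

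The share of the 9 genes from summed FPKM was 0.5383 percentage points higher than with DMSO in batch 1, where the groups of the count-based share overlapped, 0.9983 higher with 0.1 mM adenosine and 0.5526 with AMP, and the AMP share was -0.4457 points from that with adenosine; the cause was not tested. Values near 0 turned their direction. These were mt-Co2 in batch 1 (0.1666 with library totals, -0.1229 to 0.0177 without a library), Lrpprc in batch 1 (0.0287 with library totals) and mt-Atp6 with AMP (0.1116 with library totals). The sum of mt-Co3 and its copy had -0.0569 with 0.1 mM adenosine and -0.1085 with AMP. mt-Co3 alone had 0.00213 and 0.00304 for AMP against adenosine with limma. Leaving out a library gave -0.0878 to 0.1031 for mt-Atp6 and -0.1101 to 0.2144 for mt-Co3 with 0.1 mM adenosine. With AMP it gave -0.1394 to 0.1695 for mt-Co3, -0.0527 to 0.0552 for mt-Nd4 and -0.0199 to 0.2804 for mt-Nd6. For AMP against adenosine it gave -0.1440 to 0.1451 for mt-Rnr2, -0.2042 to 0.1205 for mt-Co3, -0.1102 to 0.0132 for mt-Nd4 and -0.0304 to 0.1622 for mt-Nd5. For the difference between batches it gave -0.0758 to 0.1143 for mt-Nd5 and -0.00333 to 0.3203 for mt-Cytb. The counts of mt-Co2, mt-Co3 and mt-Atp6 limit what can be said of these genes.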

Other observations

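The 5 nuclear genes whose levels went most like the mean of the 9 mitochondrial genes were Zmym2 (Pearson r = 0.958), Apool (0.918), Phf10 (0.917), Trim33 (0.915) and Phf20l1 (0.91). Likeness was the correlation over 15 libraries of log2(CPM + 1), centred on the DMSO mean of each batch, among 8355 genes. The libraries share their treatments and depth, so these are descriptions with no test.

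The ratio of mt-Rnr1 to mt-Rnr2 counts was 0.0149 with DMSO and 0.0330 with adenosine in batch 1, and 0.00754 with DMSO, 0.0276 with adenosine and 0.0163 with AMP in batch 2.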
